A study of Rattus norvegicus with 10 samples.

Results

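Gene expression in the fasted liver was compared between rats fed fish oil and rats fed coconut fat, with 42% of dietary energy from fat in both diets. The comparison used 4 of the series' 10 arrays, the 2 labelled as fish oil and the 2 labelled as coconut fat, and every probe set that was not a control. All animals were male Wistar rats, an outbred laboratory strain. They ate their diet for 12 weeks, were fasted overnight, and a frozen piece of a liver lobe gave the RNA. The series' design text calls the fish oil cod liver oil. The other arrays, also 2 per diet, came from rats fed 42% of energy as lard or as olive oil, and from rats fed standard chow, for which no share of fat was given. The labels give neither the age of the animals nor whether RNA of several animals was mixed. The p-values therefore reflect only how far these samples spread, which may be technical, and precision is limited by the number of arrays, 2 per diet.

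Fish oil is rich in long-chain, highly unsaturated fatty acids, and cod liver oil also carries vitamins A and D, while coconut fat consists mostly of saturated fatty acids of medium chain length. In liver, long-chain unsaturated fatty acids are known as ligands of PPAR-alpha, the nuclear receptor that drives genes of mitochondrial and peroxisomal fatty acid oxidation, and as inhibitors of SREBP-1c, the transcription factor that drives fatty acid synthesis. Medium-chain fatty acids reach the liver through the portal vein and enter mitochondria largely without the carnitine shuttle that long-chain fatty acids need.

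Each value was a MAS5 signal, the brightness of a probe set on a linear scale, and the trimmed mean of every array was 100. The median signal of an array lay between 28.7 and 31.9, apart from the second lard array at 36.8. Across probe sets, the 2 fish oil arrays correlated at r = 0.943, the 2 coconut fat arrays at 0.948, and fish oil with coconut fat arrays at 0.936 to 0.94. The hepatocyte list, with 9 of its 10 markers tested, had a summed signal between 58667 and 69895 on all 10 arrays. Of 31042 probe sets, 18625 passed the filter on dim signals and were tested. Log2 differences (log2 fold changes in the plots) are differences of log2(signal + 3.1), fish oil minus coconut fat, with the standard error (SE) of the fit to all 10 arrays. This scale understates the change of dim genes. A signal at or below 12.8, the highest of a bacterial control sequence that no protocol step adds, was taken as background.

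Between fish oil and coconut fat, 16 of the 18625 probe sets (0.0859%) passed limma's test at a Benjamini-Hochberg adjusted p of 0.05. The signal was higher with fish oil in 8 and lower in 8, and each of the 16 differed by at least 2-fold. At an unadjusted p under 0.05 there were 656 higher and 754 lower probe sets. Of the 16, 13 carry a single gene symbol and stand for 12 genes. Acot1, Acot2, Ehhadh, Hdc, Mt2A and Cd14 were higher with fish oil. Apoa4, Inhba, Ptprs, Smim1, Cyp4a8 and Phlda3 were lower. In 16 of 16 both fish oil arrays lay beyond all 8 other arrays of the series, as was the case for 8.06% of all tested probe sets. The 16 were selected on these same fish oil arrays, so that count is not independent of the selection. Each fit with 1 array left out kept only 1 array for that diet. Apoa4 and the probe sets 1386656_at and 1368718_at, which carry no symbol, kept their call whichever array was left out. All others of the 16 lost their call in at least 1 such fit. Without the intensity trend, by which limma lets the expected spread vary with the signal, 2 of the 16 passed, Apoa4 and a probe set with no symbol. In a fit of only the 4 arrays compared, 6 of the 16 passed.

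**Figure D1:**
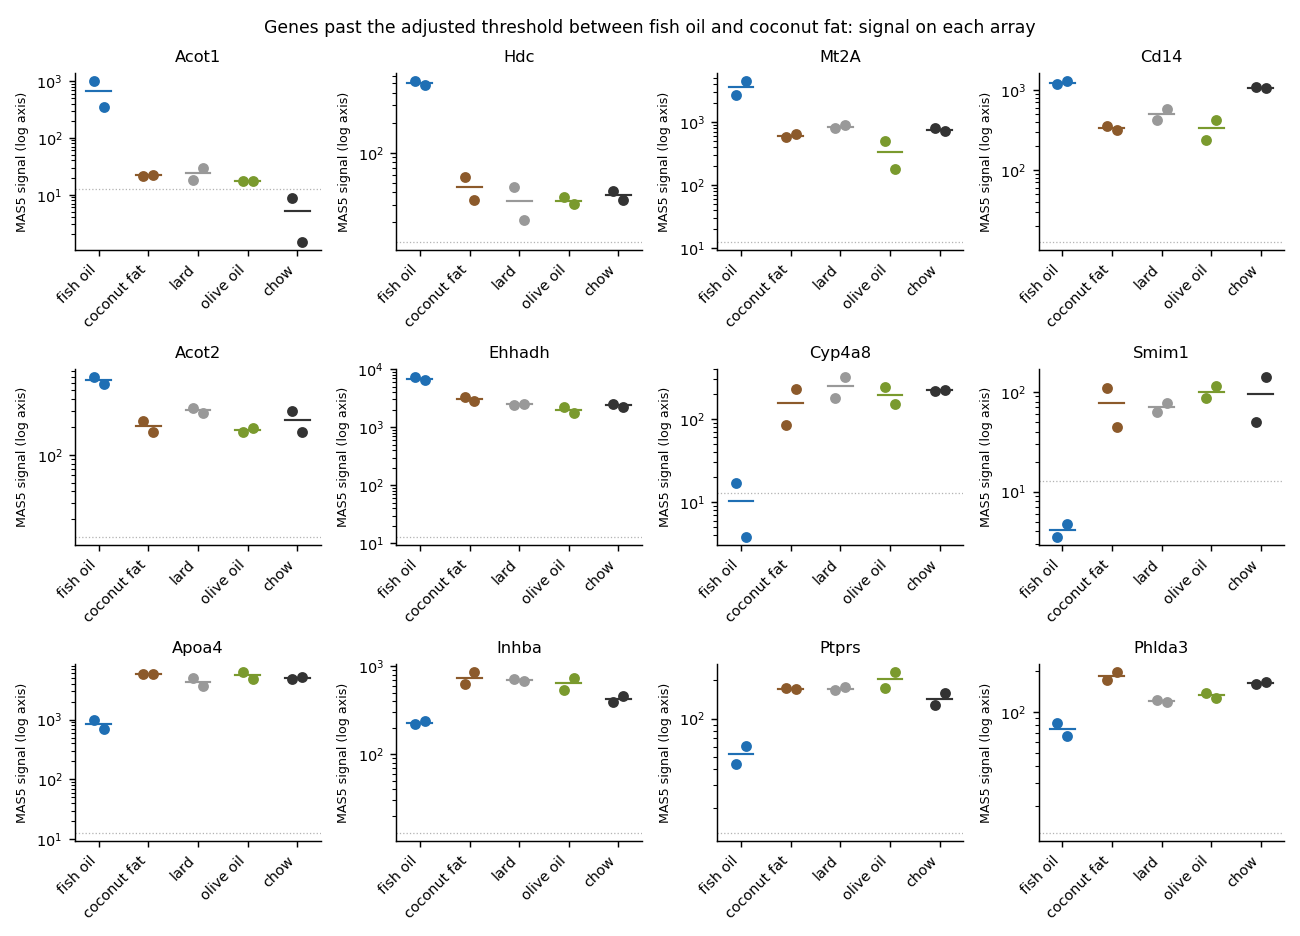
MAS5 signal (log axis) of the 12 genes that passed limma's test, 1 point per array and a line at each diet's mean, with a dotted line at the background bound of 12.8. In each panel both fish oil points lie on the same side of the 8 other points, as for Apoa4, with 970.5 and 699 against 3603 to 6180 on the other arrays.

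**Figure D2:**
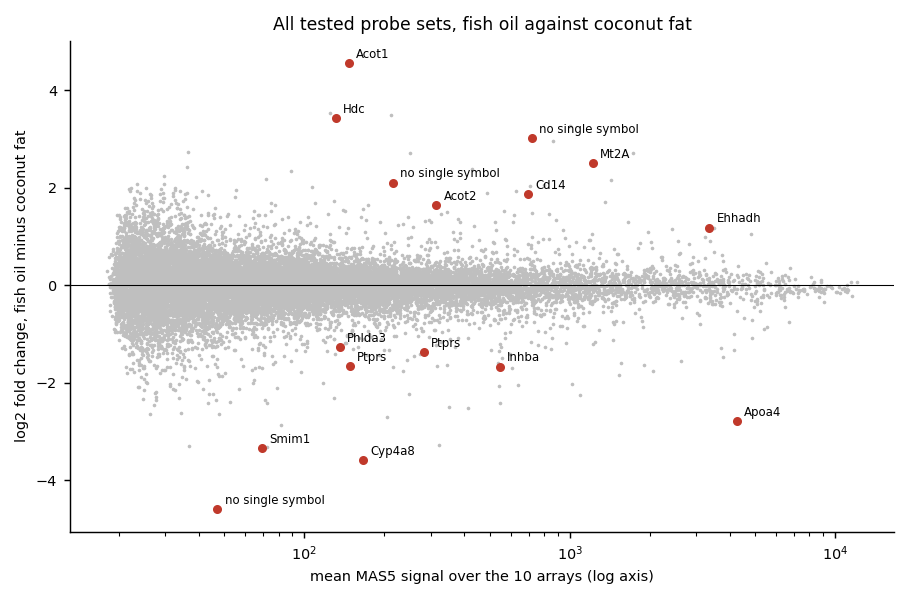
Log2 difference, fish oil minus coconut fat, of the 18625 tested probe sets against their mean MAS5 signal over the 10 arrays (log axis). The 16 probe sets past the adjusted threshold are labelled, and most other probe sets lie near 0, with a median of 0.01.

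Acot1, Acot2 and Ehhadh, enzymes of acyl-CoA handling and peroxisomal fatty acid oxidation, rose with fish oil. Acot1 is a cytosolic thioesterase that splits long-chain acyl-CoA into free fatty acid and coenzyme A, and Acot2 is its mitochondrial relative. The genes lie within 33.8 kb of each other on chromosome 6 of GRCr8. The Acot1 signal was 989.8 and 344 with fish oil, 21.7 and 22 with coconut fat, 18.3 and 29.6 with lard, 17.6 and 17.6 with olive oil and 8.8 and 1.5 with chow. Only the fish oil arrays were far above background, and the 2 chow arrays were below it. Acot1 was 23.5-fold higher with fish oil (a log2 difference of 4.56, SE 0.56, limma adjusted p = 0.0169). The difference ranged from 3.80 to 5.31 with 1 array left out. The call was lost without the intensity trend, and without either coconut fat array or the first fish oil array, and the limma adjusted p ran from 0.00366 to 0.15 over 19 alternatives.

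For Acot2, the probe set that passed read 700.1 and 587 with fish oil, 233 and 178 with coconut fat, 321 and 283 with lard, 176 and 194 with olive oil and 301 and 175 with chow. Both fish oil arrays were above all others. Acot2 was 3.12-fold higher with fish oil (a log2 difference of 1.64, SE 0.24, limma adjusted p = 0.0426). Its call was lost without the intensity trend, with only the arrays compared and when any of the 8 arrays other than chow was left out (limma adjusted p 0.014 to 0.273 over 20 alternatives). The brightest Acot2 probe set read 1410 and 1212 with fish oil and 607 and 753 with coconut fat and did not pass (log2 difference 0.95, limma adjusted p = 0.19), nor did the third (1.29, limma adjusted p = 0.0724). A further probe set annotated to both genes read 664.9 and 388 with fish oil and 116 and 115 with coconut fat, 4.30-fold higher (limma adjusted p = 0.024). It did not pass without the intensity trend, with only the arrays compared, or without either coconut fat array or the first fish oil array.

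Ehhadh carries out the hydratase and dehydrogenase steps of peroxisomal beta-oxidation. The Ehhadh signal was 7370 and 6386 with fish oil, 3319 and 2767 with coconut fat, 2397 and 2526 with lard, 2238 and 1736 with olive oil and 2512 and 2259 with chow. The coconut fat arrays were the next highest after fish oil. Ehhadh was 2.26-fold higher with fish oil (a log2 difference of 1.18, SE 0.16, limma adjusted p = 0.024). The call was lost without the intensity trend, with only the arrays compared and when any lard, coconut fat or fish oil array was left out (log2 difference 1.05 to 1.31, limma adjusted p 0.011 to 0.273 over 20 alternatives).

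The wider lists were read with each gene's brightest probe set, 10470 genes in all. Of these, 50.9% were above 0, 418 (3.99%) were higher and 447 (4.27%) lower with fish oil at an unadjusted p under 0.05, and the median log2 difference was 0.01. In the peroxisomal list 7 of 19 tested genes were higher and 1 was lower at that level, with a median of 0.18. Pex11a, a membrane protein of peroxisome growth, read 622 and 803 with fish oil and 283 and 292 with coconut fat (log2 difference 1.29, SE 0.25, limma adjusted p = 0.113). Decr2, the peroxisomal dienoyl-CoA reductase that handles unsaturated fatty acids, read 2383 and 2147 with fish oil and 1392 and 1503 with coconut fat (log2 difference 0.64, limma adjusted p = 0.511). The carnitine acyltransferases Crat and Crot had log2 differences of 0.98 and 0.57. Apart from Ehhadh, no gene of the list passed the adjusted threshold.

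Acox2, the peroxisomal oxidase of bile acid precursors, ran the other way. The Acox2 signal was 1214 and 902 with fish oil, 3909 and 2553 with coconut fat, 1029.5 and 651 with lard, 1121 and 965 with olive oil and 917 and 2381 with chow. The coconut fat arrays were the high ones, and the fish oil arrays lay among lard, olive oil and chow (log2 difference -1.59, SE 0.38, limma adjusted p = 0.264).

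Mitochondrial fatty acid oxidation had 19 of 20 tested genes above 0, 7 of them at an unadjusted p under 0.05 and 0 past the adjusted threshold, with a median log2 difference of 0.29. All 5 carnitine shuttle genes were above 0, with a median of 0.52. Cpt2, the inner membrane carnitine palmitoyltransferase, read 1039.8 and 982 with fish oil and 711 and 711 with coconut fat. Slc25a20, the carnitine-acylcarnitine carrier, read 1102 and 1023 and 804 and 682. Neither gene passed, with a limma adjusted p of 0.415 for Cpt2 and 0.572 for Slc25a20. Among the matrix enzymes, Eci1, which moves double bonds of unsaturated acyl-CoA, read 5280.1 and 4579.8 and 2645 and 2868, and Decr1, the mitochondrial dienoyl-CoA reductase, 4905 and 4406 and 3076 and 3239. Hadhb, the thiolase subunit of the trifunctional protein, read 3649.7 and 2429 and 1984 and 2019. The list's median level on an array, relative to each gene's mean over the 10 arrays, was 0.41 and 0.25 on the fish oil arrays and 0.05 and -0.06 on the coconut fat arrays.

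**Figure D3:**
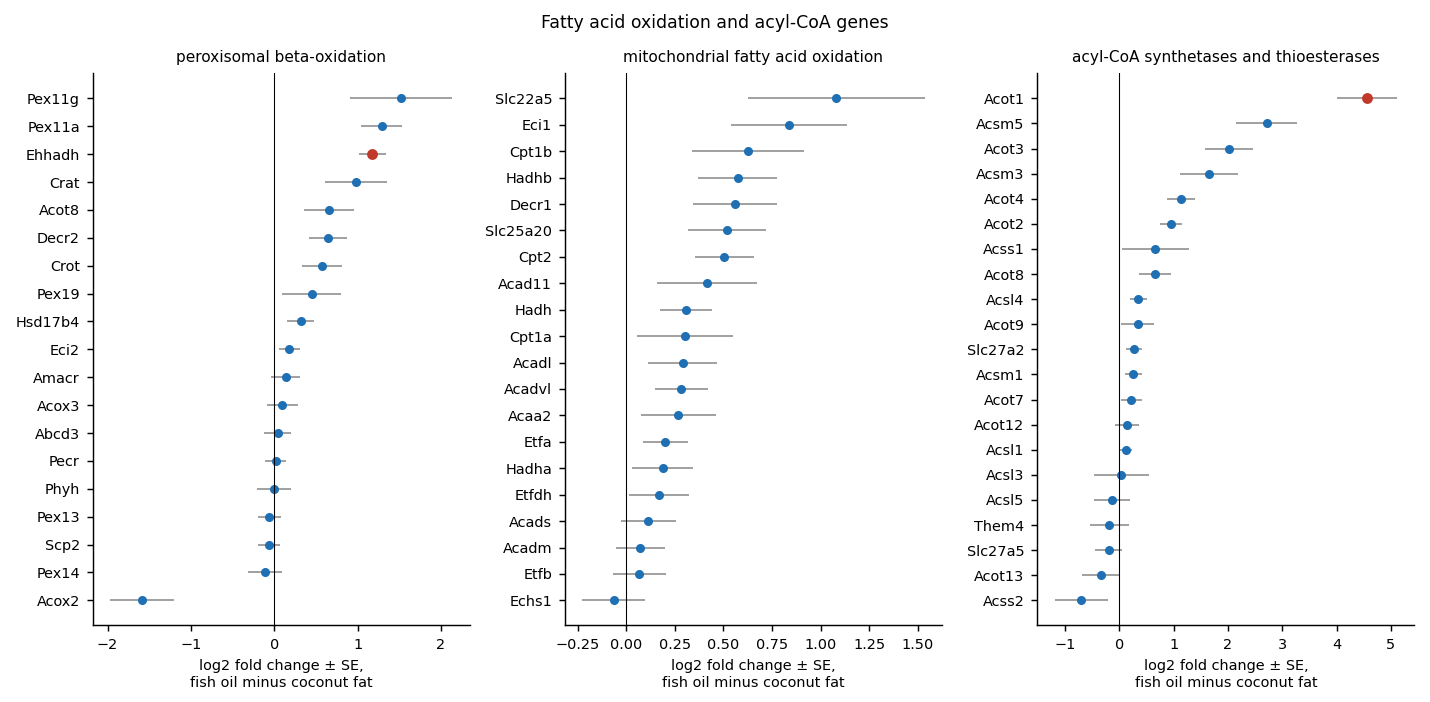
Log2 difference, fish oil minus coconut fat, with its SE, of each tested gene of 3 lists. Red marks the genes whose shown probe set passed the adjusted threshold (Ehhadh and Acot1), 19 of 20 mitochondrial genes lie right of 0, and Acox2 lies far to the left at -1.59.

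Among the acyl-CoA synthetases and thioesterases, 7 of 21 tested genes were higher and 0 lower at an unadjusted p under 0.05, 5 of them among the 10 thioesterases. Acot4, a peroxisomal thioesterase in mice, read 794 and 869.5 with fish oil and 333 and 425 with coconut fat (log2 difference 1.14, limma adjusted p = 0.222). Acot3, another peroxisomal thioesterase in mice, read 274 and 124 and 50.8 and 36.7 (log2 difference 2.02, limma adjusted p = 0.197). Acsm5, a synthetase of medium-chain acyl-CoA, read 558 and 669.8 and 195 and 41.1 (log2 difference 2.71, limma adjusted p = 0.166). Only 1 coconut fat array was low for Acsm5, and the other lay among lard, olive oil and chow.

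Of 26 other genes known as PPAR-alpha targets, 21 were above 0, 7 were higher and 1 was lower at an unadjusted p under 0.05, and the median was 0.45, between 0.16 and 0.61 with 1 array left out. Cyp4a1 and Cyp4a3, omega-hydroxylases of fatty acids, read 5813 and 5820.1 and 4479 and 5939.9 with fish oil against 3658 and 2362 and 3305 and 3994 with coconut fat. Their log2 differences were 0.98 and 0.51 (limma adjusted p = 0.428 and 0.532). Vnn1, the pantetheinase vanin, read 1034 and 715 and 236 and 479. Angptl4, a secreted inhibitor of lipoprotein lipase, read 2107 and 1405 and 874 and 946. Pdk4, the kinase that shuts pyruvate dehydrogenase, read 1386 and 688 and 550.1 and 464, with olive oil at 1153 and 1386. Neither Vnn1, Angptl4 nor Pdk4 passed (limma adjusted p = 0.532, 0.457 and 0.373).

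Cyp4a8, of the same P450 subfamily, fell with fish oil. The Cyp4a8 signal was 17.1 and 3.8 with fish oil, 84 and 229 with coconut fat, 178 and 321 with lard, 242 and 151 with olive oil and 219 and 223 with chow. The second fish oil array was below the background bound and the first just above it, while every other array was at 84 or more. With the second fish oil array set to the bound, Cyp4a8 was at least 9.37-fold lower with fish oil (log2 difference of the fit -3.59, SE 0.54, limma adjusted p = 0.0426). Its value depended on the handling of low signals and on single arrays, from -4.10 to -2.95 under other settings and from -4.36 to -2.81 with 1 array left out. It lost its call with a floor in place of the offset, without the intensity trend, with robust empirical Bayes and with only the arrays compared. It also lost it when any of 8 arrays was left out, the exceptions being the first coconut fat and the first fish oil array (limma adjusted p 0.0298 to 0.273 over 20 alternatives). The second Cyp4a8 probe set did not pass (-2.11, limma adjusted p = 0.255). Of 5 tested ketone body genes, 4 were above 0. Acat1, the thiolase at the start of ketogenesis, read 3112 and 2859.5 with fish oil and 1492 and 2099 with coconut fat (log2 difference 0.75, limma adjusted p = 0.222).

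**Figure D4:**
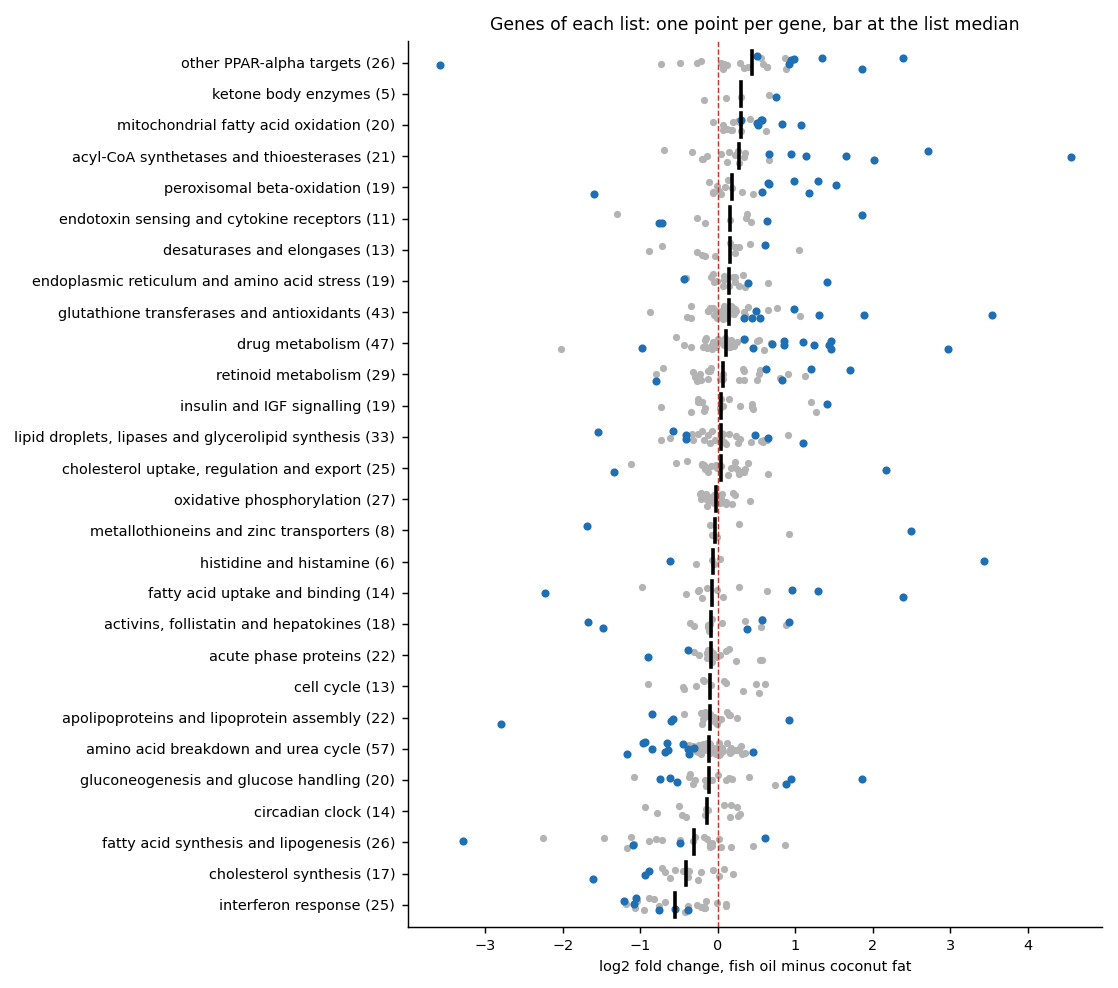
Log2 difference, fish oil minus coconut fat, of every tested gene in the 28 pathway lists, 1 point per gene, with the number of genes in brackets, a bar at the list's median and blue points for an unadjusted p under 0.05. The highest median, 0.45, belongs to other PPAR-alpha targets and the lowest, -0.55, to the interferon response.

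No gene of fatty acid or cholesterol synthesis passed the adjusted threshold. In the lipogenesis list 20 of 26 tested genes were below 0, 3 of them at an unadjusted p under 0.05 and 1 above 0 at that level, and the median was -0.31. The fish oil arrays differed from each other in it. For Fasn, fatty acid synthase, the signal was 59.6 and 753 with fish oil, 1842 and 579.6 with coconut fat, 823 and 521 with lard, 1386 and 3788 with olive oil and 106 and 1097 with chow. The first fish oil and the first chow array were the lowest, the second fish oil array exceeded the second coconut fat array, and the log2 difference of -2.25 had an SE of 1.16 (limma adjusted p = 0.702). Acaca, acetyl-CoA carboxylase, read 138 and 323 with fish oil and 541 and 378 with coconut fat. Srebf1, which encodes SREBP-1c, read 465 and 1436 and 1836 and 1854 (log2 difference -1.17, SE 0.57, limma adjusted p = 0.684). Pnpla3, a lipase of lipid droplets, had 3 tested probe sets. The brightest was near background on 3 of the 4 arrays, with 1.4 and 13 against 418 and 13.2. On that probe set 1 coconut fat array carried the difference. The desaturases and elongases had 7 of 13 tested genes above 0, a median of 0.16 whose sign turned in 2 alternatives, and 1 gene, Scd2, at an unadjusted p under 0.05.

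Cholesterol synthesis had 14 of 17 tested genes below 0, with a median of -0.41 that ran from -0.82 to -0.05 with 1 array left out. Tm7sf2, a sterol reductase, read 146 and 146 with fish oil and 537 and 375 with coconut fat (log2 difference -1.60, SE 0.42, limma adjusted p = 0.335). Its fish oil arrays were nearly equal and below all 8 others. Dhcr7, which makes cholesterol from its immediate precursor, read 272 and 621 and 862 and 722, and Cyp51, the lanosterol demethylase, 264 and 483 and 804 and 543. The list's median level was -0.93 and -0.20 on the fish oil arrays and 0.09 and -0.41 on the coconut fat arrays, so the diets overlapped. In cholesterol uptake, regulation and export, 13 of 25 tested genes were above 0 and 12 below. Nr0b2, the nuclear corepressor of bile acid synthesis, read 342 and 213 with fish oil and 651 and 724 with coconut fat (limma adjusted p = 0.626). The chow arrays, at 660 and 123, lay on both sides of the fish oil arrays. Abcg5, of the export genes, ran the other way, with 152 and 73.9 against 13.6 and 32 (log2 difference 2.18, SE 0.99, limma adjusted p = 0.657). Its chow arrays read 320.5 and 20.3.

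**Figure D5:**
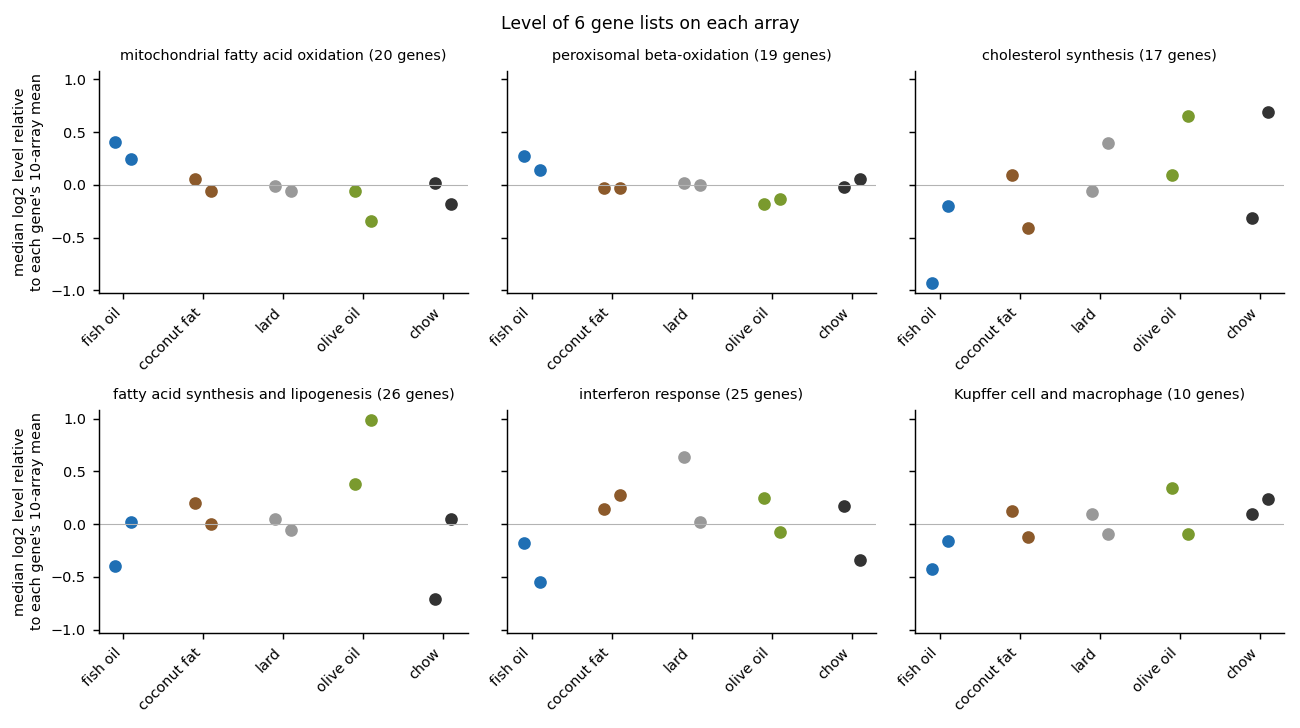
Median level of 6 gene lists on each array, as log2 signal relative to each gene's mean over the 10 arrays, 1 point per array. Both fish oil arrays are the highest for the 2 fatty acid oxidation lists and the lowest for the Kupffer cell list, while for cholesterol synthesis and lipogenesis they overlap with coconut fat.

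Apoa4 fell, with the smallest p of all tested probe sets. It encodes apolipoprotein A-IV, a secreted protein of chylomicrons and high-density lipoproteins made in intestine and, in rodents, in liver. The Apoa4 signal was 971 and 699 with fish oil, 5722 and 5714 with coconut fat, 5036 and 3603 with lard, 6180.4 and 4841 with olive oil and 4773 and 5122 with chow. The coconut fat arrays agreed closely and the fish oil arrays lay far below the 8 others. Apoa4 was 6.92-fold lower with fish oil (a log2 difference of -2.79, SE 0.20, limma adjusted p = 0.000411). It passed in all 20 alternatives, with log2 differences of -3.03 to -2.55 when 1 array was left out. Of 22 tested genes of apolipoproteins and lipoprotein assembly, 16 were below 0, 4 of them at an unadjusted p under 0.05, with a median of -0.10. Lipc, hepatic lipase, read 2279.8 and 2498 with fish oil and 3806 and 3479 with coconut fat (log2 difference -0.61, SE 0.14, limma adjusted p = 0.241). Tm6sf2, which takes part in lipidation of very-low-density lipoprotein, read 287 and 263 and 461 and 370.2. Apobec1, the enzyme that edits apolipoprotein B mRNA, read 67.6 and 97.6 and 184 and 121.

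Fatty acid uptake and lipid storage genes went both ways and none passed. Cd36, a fatty acid translocase and scavenger receptor, was near the threshold. Its signal was 913 and 953 with fish oil, 259 and 118 with coconut fat, 504 and 228 with lard, 609.6 and 369 with olive oil and 119.7 and 205 with chow. Both fish oil arrays were above the 8 others, and the log2 difference was 2.39 (SE 0.43, limma adjusted p = 0.0929). Slc27a4, a fatty acid transport protein, read 5.7 and 13.4 with fish oil and 58.8 and 48.5 with coconut fat (log2 difference -2.23, limma adjusted p = 0.266). Among 33 tested genes of lipid droplets and glycerolipid synthesis, 18 were above 0 and 15 below. Plin3, a coat protein of lipid droplets, read 131 and 71.8 with fish oil and 244 and 343 with coconut fat (log2 difference -1.54, SE 0.30, limma adjusted p = 0.124). Pemt, which makes phosphatidylcholine by methylation, read 1049 and 1162 and 1531 and 1413, and Dgat2, the last enzyme of triglyceride synthesis, 1318 and 1453 and 2179 and 1943.

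No gene of retinoid, xenobiotic or glutathione metabolism passed the adjusted threshold. The share above 0 was 58.6% for the retinoid list and 48% for P450 enzymes, against the 50.9% of all genes. Aldh1a1, which oxidises retinaldehyde to retinoic acid, was close to it. The Aldh1a1 signal was 3681 and 3418 with fish oil, 921 and 1279 with coconut fat, 870.2 and 985 with lard, 1112 and 599.5 with olive oil and 291 and 455 with chow. Both fish oil arrays were above all 8 others, and the log2 difference was 1.71 (SE 0.28, limma adjusted p = 0.0724). Without either olive oil array, or with only the 4 arrays compared, it passed (limma adjusted p 0.0272 to 0.384 over its alternatives). Of 29 tested retinoid genes, 4 were higher and 1 was lower at an unadjusted p under 0.05. Dhrs4, a retinol and retinaldehyde reductase, read 1708 and 1381 with fish oil and 1026 and 959 with coconut fat. Rara, a retinoic acid receptor, read 69 and 84.9 and 139 and 131 (log2 difference -0.80, limma adjusted p = 0.481).

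Of 47 tested drug metabolism genes, 11 were higher and 1 was lower at an unadjusted p under 0.05. The conjugating and hydrolysing enzymes accounted for 9 of the 11, with 18 of 22 above 0 and a median of 0.29, while the P450 enzymes had 12 of 25 above 0. For Ugt2b1, a glucuronosyltransferase, the signal was 1529 and 3223 with fish oil, 151 and 520.4 with coconut fat, 423 and 523 with lard, 334 and 514 with olive oil and 549.7 and 844 with chow. The fish oil arrays were the highest, and the arrays of either diet differed from each other by more than 2-fold. The log2 difference was 2.97 (SE 0.50, limma adjusted p = 0.0724), and without the second coconut fat array it passed (limma adjusted p 0.00378 to 0.377 over its alternatives). Cyp2d4, a P450 of drug metabolism, read 135 and 161 with fish oil and 296 and 293 with coconut fat (log2 difference -0.98, SE 0.18, limma adjusted p = 0.101).

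Of 43 tested glutathione transferases and antioxidant enzymes, 32 were above 0, and 8 were higher and 0 lower at an unadjusted p under 0.05. The median was 0.14, between -0.0008 and 0.37 with 1 array left out. Gstp1, the pi-class transferase, read 585 and 476 with fish oil and 178 and 249 with coconut fat (log2 difference 1.31, SE 0.23, limma adjusted p = 0.0929). Nqo1, a quinone reductase, read 739.7 and 1567 and 192 and 432, and Gsta3, an alpha-class transferase, 244 and 717 and 22.9 and 47.7. Their log2 differences were 1.89 and 3.54 (limma adjusted p = 0.197 and 0.248). In both genes the second fish oil array was much higher than the first.

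Mt2A, a metallothionein, is a small cysteine-rich protein that binds zinc and copper and is induced by metals. Its neighbour Mt1 lies within 6.7 kb on chromosome 19. The promoters of both are shown because Mt2A rose while Mt1 did not pass, with capitals marking the core of the metal response element, TGCACNC or TGCGCNC, on either strand. The sequences are from RefSeq (GRCr8), 250 bases before to 50 after the gene start, at chr19:10838659-10838958 for Mt2A and chr19:10832926-10833225 for Mt1, both on the minus strand.
Mt2A: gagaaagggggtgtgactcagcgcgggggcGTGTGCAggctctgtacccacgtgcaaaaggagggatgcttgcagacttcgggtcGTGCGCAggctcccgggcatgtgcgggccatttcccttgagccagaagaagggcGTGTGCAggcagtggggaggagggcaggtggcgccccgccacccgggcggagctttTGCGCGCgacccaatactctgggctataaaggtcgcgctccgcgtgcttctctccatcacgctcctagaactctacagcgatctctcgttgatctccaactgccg
Mt1: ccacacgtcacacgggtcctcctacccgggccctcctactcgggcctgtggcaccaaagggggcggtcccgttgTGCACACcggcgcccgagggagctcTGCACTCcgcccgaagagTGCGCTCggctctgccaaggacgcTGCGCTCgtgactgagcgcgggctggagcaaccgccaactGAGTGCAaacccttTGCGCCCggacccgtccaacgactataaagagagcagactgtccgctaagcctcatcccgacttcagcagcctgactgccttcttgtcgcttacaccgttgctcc
The core was matched 4 times in the Mt2A and 6 times in the Mt1 sequence. At least 1 match was found in 24.2% and 4 or more in 0.439% of all 33469 rat promoter sequences of that length, and a match is a description of letters only.

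The Mt2A signal was 2700.3 and 4412 with fish oil, 574 and 644 with coconut fat, 793 and 897 with lard, 498 and 178 with olive oil and 805 and 712 with chow. Both fish oil arrays were above the 8 others. Mt2A was 5.65-fold higher with fish oil (a log2 difference of 2.50, SE 0.37, limma adjusted p = 0.0426). The direction held in all 20 alternatives, but the call was lost without the intensity trend, with robust empirical Bayes and when any array other than olive oil was left out (log2 difference 2.15 to 2.85, limma adjusted p 0.00327 to 0.293 over the alternatives). Mt1 was dimmer, at 42.4 and 143 with fish oil and 31.9 and 49.8 with coconut fat (log2 difference 0.92, SE 0.51, limma adjusted p = 0.721), with 1 high fish oil array. Of 6 tested zinc transporters, 5 were below 0, but their median was only -0.07. Slc39a4, the importer ZIP4, read 113 and 104 with fish oil and 299.8 and 421 with coconut fat (log2 difference -1.69, SE 0.27, limma adjusted p = 0.0544). It read 212 and 146 with lard, 187 and 226 with olive oil and 174 and 279 with chow, so fish oil was lowest and coconut fat highest.

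Hdc, the decarboxylase that makes histamine from histidine, rose with fish oil. The Hdc signal was 526 and 487 with fish oil, 57.5 and 33.7 with coconut fat, 45.1 and 21 with lard, 35.8 and 30.4 with olive oil and 41.4 and 33.2 with chow. The 8 other arrays were low, between 21 and 57.5. Hdc was 10.8-fold higher with fish oil (a log2 difference of 3.43, SE 0.35, limma adjusted p = 0.00488). The call was lost without the intensity trend, and without the second coconut fat array or either fish oil array (log2 difference 3.07 to 3.79, limma adjusted p 0.00157 to 0.0855 over 20 alternatives). Of the other 5 tested genes of histidine and histamine metabolism, 1 was above 0. Hal, which starts histidine breakdown, read 709 and 855 with fish oil and 1362 and 1043 with coconut fat (log2 difference -0.61, limma adjusted p = 0.599).

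In amino acid breakdown and the urea cycle 38 of 57 tested genes were below 0, 11 of them at an unadjusted p under 0.05 against 1 above 0, with a median of -0.11. The aromatic and one-carbon genes had 21 of 25 below 0 and the urea cycle 7 of 11. The transaminases and dehydratases had 11 of 21 above 0. Among them Hibch, the gene above 0 at that level, read 652 and 756 with fish oil and 512 and 514 with coconut fat. Aspg, an asparaginase, read 172 and 132 with fish oil and 408 and 291 with coconut fat (log2 difference -1.18, SE 0.20, limma adjusted p = 0.0877). Dmgdh, the dimethylglycine dehydrogenase of choline breakdown, read 626 and 795 and 1303 and 1231 (log2 difference -0.84, SE 0.16, limma adjusted p = 0.101). For both genes the fish oil arrays were below the 8 others. Agxt, which converts glyoxylate to glycine, read 627 and 569.7 and 1026 and 854, and Gldc, of the glycine cleavage system, 149.6 and 210 and 397 and 309.

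The gluconeogenesis and glucose list held 3 genes higher and 3 lower of 20 tested at an unadjusted p under 0.05. Pc, pyruvate carboxylase, read 632 and 705 with fish oil and 949 and 975 with coconut fat, and Pygl, liver glycogen phosphorylase, 878 and 1180.1 and 1590 and 1833. Insulin and IGF signalling had 11 of 19 tested genes above 0 and 1, Trib3, at that level. The 2 diets' Trib3 arrays overlapped.

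Inhba fell with fish oil. It encodes the beta A subunit shared by activin A and inhibin A, secreted proteins of the TGF-beta family. The Inhba signal was 218 and 237 with fish oil, 627 and 852 with coconut fat, 708 and 686 with lard, 538 and 734 with olive oil and 389 and 457 with chow. The fish oil arrays were the lowest and chow lay between them and the other high-fat diets. Inhba was 3.19-fold lower with fish oil (a log2 difference of -1.67, SE 0.19, limma adjusted p = 0.0125). The call was lost without the intensity trend, with only the arrays compared, and without the second coconut fat array or either fish oil array (log2 difference -1.89 to -1.45, limma adjusted p 0.00403 to 0.16 over 20 alternatives). A second Inhba probe set did not pass (-1.45, limma adjusted p = 0.106). Among 18 tested activin, follistatin and hepatokine genes, 3 were higher and 2 lower at an unadjusted p under 0.05. Acvr1c, a type I receptor of the family, was below background on both fish oil arrays at 7.8 and 8.3 and read 28.7 and 27.1 with coconut fat, at least 2.18-fold lower (limma adjusted p = 0.488).

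Ptprs, a receptor-type tyrosine phosphatase, passed on 2 probe sets. The first read 44.4 and 61.4 with fish oil, 172 and 172 with coconut fat, 166 and 176 with lard, 175 and 231 with olive oil and 127 and 158 with chow. The fish oil arrays were the lowest of the 10. Ptprs was 3.17-fold lower with fish oil (a log2 difference of -1.66, SE 0.22, limma adjusted p = 0.024). The second read 131 and 139.9 with fish oil and 391 and 328 with coconut fat (log2 difference -1.38, SE 0.20, limma adjusted p = 0.0426). The other two Ptprs probe sets did not pass, with log2 differences of 0.27 and -0.88 (limma adjusted p = 0.824 and 0.367), so the probe sets of this gene disagree. Both calls were lost without the intensity trend and with only the arrays compared. The call on the first was also lost when any lard, coconut fat or fish oil array was left out (limma adjusted p 0.0122 to 0.16 over 20 alternatives), and that on the second when any array other than chow was left out (0.024 to 0.273), so that it passed in 9 of 20 alternatives.

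The signal of Phlda3, a small protein that inhibits Akt, was 83.5 and 66.3 with fish oil, 173 and 197 with coconut fat, 123 and 119 with lard, 138 and 128 with olive oil and 162 and 168 with chow. Fish oil was lowest and coconut fat highest. Phlda3 was 2.42-fold lower with fish oil (a log2 difference of -1.28, SE 0.19, limma adjusted p = 0.0426). It lost its call without the intensity trend, with only the arrays compared and whichever array was left out (log2 difference -1.44 to -1.12, limma adjusted p 0.0322 to 0.23 over 20 alternatives). The signal of Smim1, a small membrane protein that carries a blood group antigen in humans, was 3.5 and 4.7 with fish oil, 109 and 44.3 with coconut fat, 63.2 and 76.5 with lard, 86.3 and 115 with olive oil and 50.2 and 142 with chow. Both fish oil arrays were below background and no other array was. With fish oil the signal was at least 5.43-fold lower (log2 difference -3.34, SE 0.49, limma adjusted p = 0.0426). Its call was lost with the offset at the 25th percentile, without the intensity trend, with only the arrays compared and when any array other than chow was left out (limma adjusted p 0.0172 to 0.236 over 20 alternatives).

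Of the probe sets with no symbol, 1 was lower and 1 higher with fish oil. Probe set 1386656_at read 0.9 and 1.4 with fish oil, 104.5 and 95.3 with coconut fat, 97.4 and 64.0 with lard, 28.8 and 29.5 with olive oil and 19.1 and 30.1 with chow. It was at least 7.80-fold lower with fish oil than with coconut fat (limma adjusted p = 0.00168), and only the fish oil arrays were at background. Probe set 1368718_at read 1977 and 1777 with fish oil, 191 and 274 with coconut fat, 729.6 and 437 with lard, 709.8 and 508 with olive oil and 234 and 349.5 with chow. It was 8.09-fold higher with fish oil than with coconut fat (limma adjusted p = 0.0024), and the coconut fat arrays overlapped with chow. Both probe sets passed with any array left out, but 1386656_at did not pass with only the arrays compared and 1368718_at did not without the intensity trend.

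Cd14, the co-receptor through which Toll-like receptors sense endotoxin, was higher with fish oil than with coconut fat. The Cd14 signal was 1187 and 1285 with fish oil, 356 and 321 with coconut fat, 422 and 579 with lard, 237 and 428 with olive oil and 1100.3 and 1045 with chow. Fish oil and chow were high, and coconut fat, lard and olive oil low. Cd14 was 3.63-fold higher with fish oil (a log2 difference of 1.86, SE 0.24, limma adjusted p = 0.024). The call was lost without the intensity trend and when any coconut fat or fish oil array was left out (log2 difference 1.79 to 1.94, limma adjusted p 0.00327 to 0.236 over 20 alternatives). In bulk liver, fewer cells of a type and less RNA per cell cannot be told apart. The other receptors of endotoxin and cytokines went both ways. Il1r1, the interleukin-1 receptor, read 265 and 264 with fish oil and 426 and 473 with coconut fat (log2 difference -0.76, SE 0.16, limma adjusted p = 0.166), and Il6st, the shared signalling chain of interleukin-6 type cytokines, 1504 and 1020 and 709.8 and 888 (0.64, limma adjusted p = 0.511). The list's median of 0.16 changed sign in 2 alternatives. Of 22 tested acute phase proteins, 16 were below 0 and 2 at an unadjusted p under 0.05. Orm1, alpha-1-acid glycoprotein, read 2904 and 3416 with fish oil and 6102 and 5653 with coconut fat (log2 difference -0.90, limma adjusted p = 0.399).

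Interferon response genes were mostly below 0, and none passed the adjusted threshold. Of 25 tested, 23 were below 0, 6 of them at an unadjusted p under 0.05, and the median was -0.55, between -0.70 and -0.34 with 1 array left out. For Psmb8, an immunoproteasome subunit, the signal was 236 and 226 with fish oil, 624 and 464 with coconut fat, 865 and 506 with lard, 730.2 and 584 with olive oil and 429.6 and 787 with chow. The fish oil arrays were the lowest of the 10, and the log2 difference was -1.21 (SE 0.30, limma adjusted p = 0.286). Psmb9, another subunit, and Tap1, the peptide transporter of antigen presentation, lie within 20.4 kb of Psmb8 on chromosome 20. Tap1 read 50.8 and 54.6 with fish oil and 113 and 113 with coconut fat, and the log2 differences were -1.08 for Psmb9 and -1.06 for Tap1 (limma adjusted p = 0.554 and 0.498). Igtp, an interferon-induced GTPase, read 209 and 157 and 335 and 283 (log2 difference -0.75, SE 0.21, limma adjusted p = 0.359). The list's median level was -0.18 and -0.55 on the fish oil arrays and 0.14 and 0.27 on the coconut fat arrays, but the second chow array, at -0.34, lay between the fish oil arrays.

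The promoters of Psmb8 (chr20:4656982-4657281, minus strand) and Igtp (chr10:42874797-42875096, plus strand) are shown as examples of genes of this list whose signals lay below coconut fat together. Capitals mark the core of the interferon-stimulated response element, searched as GAAA, any 2 bases and GAAA again, on either strand (RefSeq, GRCr8).
Psmb8: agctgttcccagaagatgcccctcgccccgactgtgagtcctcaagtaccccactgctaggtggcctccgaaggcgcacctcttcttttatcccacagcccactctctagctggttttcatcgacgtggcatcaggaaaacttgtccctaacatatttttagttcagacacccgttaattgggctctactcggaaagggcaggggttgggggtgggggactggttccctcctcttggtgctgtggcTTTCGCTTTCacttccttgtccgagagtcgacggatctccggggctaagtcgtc
Igtp: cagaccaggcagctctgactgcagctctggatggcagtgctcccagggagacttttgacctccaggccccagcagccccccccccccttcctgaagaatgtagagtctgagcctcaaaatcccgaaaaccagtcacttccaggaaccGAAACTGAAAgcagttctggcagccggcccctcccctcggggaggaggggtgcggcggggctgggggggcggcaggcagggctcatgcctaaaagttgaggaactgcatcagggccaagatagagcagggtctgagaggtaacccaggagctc
The core was present in 15 of the 22 list members with a promoter sequence and in 3.92% of all 33469 promoters. A list member counted if any of its promoters matched, while the share of all is per promoter. The list was chosen as interferon response genes, so its count says nothing about the diets. A match is a description of letters only.

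Kupffer cell, lymphocyte and erythroid markers were also mostly below 0, and cholangiocyte markers were above it. All 10 annotated Kupffer cell and macrophage markers of 13 listed were bright enough to test, 9 were below 0, 3 of them at an unadjusted p under 0.05 and 0 past the adjusted threshold. Their summed signal was 3219 and 3553 with fish oil, 4567 and 4101 with coconut fat and 3835 to 5270.5 on the other 6 arrays. Lyz2, lysozyme, read 526 and 665 with fish oil and 954 and 838 with coconut fat, and Cd74, the invariant chain of antigen presentation, 524 and 425 and 825 and 626. These were the markers with the smallest p. Clec4f, the brightest marker that hardly differed, read 735 and 716 and 787 and 697 (log2 difference -0.03), and C1qb differed by -0.07. Adgre1, the marker above 0, read 51.2 and 58.3 with fish oil and 37.5 and 42.5 with coconut fat (0.42). Of 10 annotated lymphocyte markers 6 were bright enough to test, and 5 of the 6 were below 0. Their summed signal was 198 and 183 with fish oil and 260.5 and 232 with coconut fat. All 3 tested erythroid markers, of 4 annotated, were below 0. Their summed signal was 4289.5 and 5790.4 with fish oil and 8242 and 8769 with coconut fat. Cholangiocyte markers went the other way, with 3 of 3 tested, of 5 annotated, above 0 and 0 at an unadjusted p under 0.05. Their median was 0.61, but -0.02 without the first coconut fat array. Their summed signal was 213 and 203 with fish oil, 98.3 and 197 with coconut fat and 105 to 291 on the other 6 arrays. The neutrophil and adipocyte lists had 1 tested marker each, both below 0. The part of these cells in the interferon list, in Cd14 or in Smim1 was not tested. Stellate and sinusoidal endothelial markers had medians of 0.00 and 0.04, and hepatocyte markers had 3 of 9 above 0.

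Oxidative phosphorylation had 11 of 27 tested genes above 0 and 0 at an unadjusted p under 0.05. The circadian clock had 6 of 14 above 0 and the cell cycle 6 of 13, again with 0 at that level. In endoplasmic reticulum and amino acid stress, 13 of 19 tested genes were above 0. Hsp90b1, a chaperone of that compartment, read 2158 and 1966 with fish oil and 1517 and 1629 with coconut fat (log2 difference 0.39, limma adjusted p = 0.506).

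Some further genes just missed the threshold, 19 probe sets in all having a limma adjusted p between 0.05 and 0.1, and those named here were chosen after their values were seen. On 1 of its 2 tested probe sets, Vxn was below background with fish oil at 3.4 and 4.2. That probe set read 42.3 and 97.6 with coconut fat, so fish oil was at least 5.02-fold lower (limma adjusted p = 0.0544). Ccn2, connective tissue growth factor, read 16.2 and 20.7 and 61.3 and 87.1 (log2 difference -1.83, SE 0.30, limma adjusted p = 0.0707). Icoslg, a ligand that costimulates T cells, read 110 and 108 and 212 and 255 (-1.07, SE 0.18, limma adjusted p = 0.0684). In these 3 genes the fish oil arrays were below the 8 others. Serpina7, thyroxine-binding globulin, read 238 and 167 with fish oil and 52.1 and 64.6 with coconut fat, with lard and olive oil at 115 to 212 (1.73, limma adjusted p = 0.0929). Here coconut fat was the lowest diet, and the fish oil arrays overlapped with lard and olive oil. Hprt1, of purine salvage, read 1581 and 1437 with fish oil and 806 and 915 with coconut fat (0.81, limma adjusted p = 0.0981).

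Whether fish oil differed from coconut fat by another amount than from lard and olive oil was tested as coconut fat against the mean of those 2 diets. None of the 18625 probe sets passed limma's adjusted threshold (0%), against 1249 at an unadjusted p under 0.05, and 0 of the 16 passed it. The fish oil arrays are not part of this contrast, which shares its coconut fat arrays with the comparison above. Of the 16, the coconut fat arrays lay beyond all 8 other arrays in 1, and the chow mean lay between fish oil and coconut fat in 10. For Ehhadh the log2 difference, coconut fat minus lard and olive oil, was 0.46 (SE 0.14, limma adjusted p = 0.595). For 1368718_at it was -1.34 (SE 0.24, limma adjusted p = 0.32). A p that misses the threshold does not show that the 3 diets were alike.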

How the data were processed

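The authors deposited MAS5 signal intensity on a linear scale from Affymetrix Rat 230 2.0 arrays, 1 array per sample, made with MAS5 per the submitters' processing notes (version not given in the sources used here). The 57 control probe sets among 31099 were removed, and 12417 of the remaining 31042 were left out as dim (the 40% with the lowest mean log2 value, below a signal of about 17.8). Values were tested as log2(deposited signal + 3.1), 3.1 being the 10th percentile of all values, without further scaling. The fit, in limma 3.58.1 (R 4.3.3), held 1 mean for each diet and used all 10 arrays. It had 5 residual degrees of freedom, and eBayes with trend = TRUE contributed a further 5.96. The p-values were adjusted by Benjamini-Hochberg over 18625 probe sets. Where both arrays of a diet lay at or below 12.8, the fold is a bound; for Cyp4a8, with 1 such array, that array was set to 12.8. Symbols came from the platform annotation (20826 probe sets with 1 symbol, 436 with several, 9780 with none).

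Named genes were those past the adjusted threshold, up to 15 in each direction, whose fish oil and coconut fat arrays did not overlap, and from each list up to 4 members that passed or otherwise the 2 with the smallest p. Further list members given with values, and the genes close to the threshold, were chosen after their values were seen. The members, the 28 pathway lists and 9 marker lists were chosen with earlier results of these data known; 676 of their 776 symbols were annotated. Lists are described by counts and medians, without a set test. On simulated data for fish oil against coconut fat (18625 probe sets), 27 of 100 changes of 1 and 79 of 100 changes of 2 on the log2 scale were recovered with 7 false calls. The simulated noise was independent and normal, with the spread that the fit with the intensity trend had estimated. Promoter sequences were read from RefSeq (GRCr8). Between fish oil and coconut fat, deviations of same-numbered arrays from their diet means correlated at -0.012. Other pairs of diets were not compared in this way, so the value does not show whether replicate numbers pair samples across the series.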

Additional observations from a re-analysis of the deposited data

How the results depend on the processing

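The count of 16 probe sets (8 higher, 8 lower) was between 14 and 18 under both other normalizations, both other offsets, both other dim filters and robust empirical Bayes. It was 3 (0 higher, 3 lower) without the intensity trend and 9 (8 higher, 1 lower) in a fit of only the 4 arrays compared, 2 and 6 of them shared with the 16; the second fit has fewer samples, and otherwise the cause was not tested. With 1 array left out it ran from 5 to 17. With the replicate number as a block it was 13 (9 higher, 4 lower), 11 of them shared; Mt2A, Cyp4a8, Smim1, Phlda3 and the second Ptprs probe set did not pass. Coconut fat against the mean of lard and olive oil gave 1 probe set with only the arrays compared, and 0 to 1 with 1 array left out. Of 137 named probe sets, 0 changed sign under the planned settings and 2 without 1 array. Krt19, a cholangiocyte marker, ran from -0.0158 without the first to 0.8212 without the second coconut fat array, and S100a9, a neutrophil marker, from 0.1884 to -0.5738, neither past the threshold. Of 37 list medians, 7 changed sign under another setting and 18 when arrays left out in turn are included; those of mitochondrial and peroxisomal oxidation, lipogenesis, cholesterol synthesis, amino acid breakdown, interferon response and Kupffer cells kept theirs. With 2 arrays per diet, small changes were hard to detect in the simulation, which recovered 27 of 100 changes of 1 on the log2 scale. The simulation took the spread of the fit with the intensity trend as true, so its counts need not hold for these arrays. The 12417 dim probe sets were not tested.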
